A study of Mus musculus with 20 samples.

Results

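The genes described here carry the insulin and insulin-like growth factor (IGF) signal in muscle, or form and regulate the mTOR complexes that this signal reaches. They were taken from a list of 34 genes, of which 33 were measured, out of 19938 genes tested. Rps6kb1, which encodes the S6 kinase, was not measured here. A gene was measured if a probe set of the array carried its symbol alone, and where several did, the one brightest over 20 arrays was used. The tissue was the gastrocnemius, a calf muscle, of adult male C57BL/6 mice, hybridised to Affymetrix gene arrays in 4 groups of 5. NCoR1-MKO mice lacked the nuclear receptor corepressor NCoR1 in muscle and were compared with CON mice, whose genotype the labels do not give. PGC-1alpha-mTg mice overexpressed the transcriptional coactivator PGC-1alpha in muscle and were compared with wild-type (WT) mice. The labels name no promoter or Cre driver, give no age beyond adult and no feeding or fasting state, and do not state whether every array stands for a separate mouse. The p-values therefore measure only how the samples spread, some of which may be technical.

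Insulin and the IGFs bind receptor tyrosine kinases at the cell surface, and IGF binding proteins hold the IGFs outside the cell. The receptors phosphorylate the adaptors IRS1 and IRS2, which recruit PI3K, and PI3K activates the kinase Akt through PDK1 and the mTOR complex mTORC2. In muscle Akt inhibits the kinase GSK3 and the proteins TBC1D1 and TBC1D4, which releases the glucose transporter GLUT4 to the cell surface. It also inhibits the TSC1 and TSC2 complex, which frees RHEB to switch on mTORC1, the complex that drives protein synthesis through the S6 kinase and the translation inhibitor 4E-BP1. Much of this control acts on the proteins, by phosphorylation, and the arrays read transcript levels only.

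All values are RMA expression values on the log2 scale, and a change is the log2 fold change ± SE from the matching controls (n = 5 arrays per group). A change was called, and is written as rose or fell, at an adjusted p under 0.05 in limma over all 19938 genes. Array medians were 6.03 to 6.08 in the knockout cohort (CON and NCoR1-MKO) and 5.84 to 5.91 in the transgenic cohort (WT and PGC-1alpha-mTg), so no level was compared between the cohorts. Arrays of a group correlated at 0.992 to 0.998. The 10 muscle fibre markers all lay above the 99.3 percentile of genes by mean level. In the transgenic muscle Ppargc1a, the gene of PGC-1alpha, was higher than in WT by 1.83 ± 0.07 (adjusted p = 9.88e-15). Ncor1 was not measured here, so the knockout label was not checked against its own transcript.

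The promoters of 3 members are shown because Igf1 and Irs1 both fell in the transgenic muscle while Akt1 rose. Each sequence is the 250 bases before a transcription start in RefSeq for GRCm38.p6, on the gene's strand, with motif matches in capitals. Igf1 lies on the plus strand (chr10:87860861-87861110), Irs1 on the minus strand (chr1:82291440-82291689) and Akt1 on the minus strand (chr12:112674885-112675134).
Igf1: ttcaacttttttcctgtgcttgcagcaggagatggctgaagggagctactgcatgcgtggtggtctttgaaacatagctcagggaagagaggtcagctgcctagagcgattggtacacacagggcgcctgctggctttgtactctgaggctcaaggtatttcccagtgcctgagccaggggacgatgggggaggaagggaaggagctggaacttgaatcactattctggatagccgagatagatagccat
Irs1: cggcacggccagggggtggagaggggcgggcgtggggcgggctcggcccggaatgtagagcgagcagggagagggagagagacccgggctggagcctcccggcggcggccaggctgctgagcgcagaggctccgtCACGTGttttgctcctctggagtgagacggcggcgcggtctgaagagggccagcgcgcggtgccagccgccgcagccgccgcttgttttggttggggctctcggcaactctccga
Akt1: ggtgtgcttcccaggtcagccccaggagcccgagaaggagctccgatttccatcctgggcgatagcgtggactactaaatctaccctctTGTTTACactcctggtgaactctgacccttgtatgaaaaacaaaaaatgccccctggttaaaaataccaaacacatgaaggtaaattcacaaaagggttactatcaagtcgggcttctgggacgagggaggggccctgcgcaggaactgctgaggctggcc
The capitals in Irs1 mark CACGTG, the E-box, and those in Akt1 mark the reverse complement of GTAAACA, the core bound by FoxO factors. The window of Igf1 held none of the motifs searched on both strands, which also included AAGGTCA, bound by estrogen-related receptors, known partners of PGC-1alpha. Over the 42 promoter entries of the 30 members that had one, CACGTG occurred in 3 (Irs1, Irs2 and Rheb), against 6.02% of all 32851 entries. GTAAACA occurred in 1 entry (Akt1), against 3.17% of all, and AAGGTCA in 1 (Igf1r), against 4.08%. A match describes the letters only, and another start of Akt1 had no match.

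Most members were close to their controls in the knockout, while 15 of 33 were called in the transgenic muscle. In NCoR1-MKO 1 member was called, Eif4ebp1, which fell, and 0 rose. Over all genes 2.63% were called in this comparison, 1.31% higher and 1.32% lower, and 4.20% of the genes above the dimmest 40 percent were called. In PGC-1alpha-mTg 3 members rose and 12 fell, where 28.0% of all genes were called, 11.9% higher and 16.1% lower. All 33 members lie above the dimmest 40 percent of genes, and among the 11963 genes of that range 42.2% were called, so the members' share of 45.5% lay near its background. The median change of the members was -0.04 in the knockout and -0.05 in the transgenic muscle, and the medians over all genes were 0.001 and 0.018. At an unadjusted p under 0.05 there were 7 members in the knockout and 20 in the transgenic muscle, of 2356 and 7382 genes in all.

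**Figure D1:**
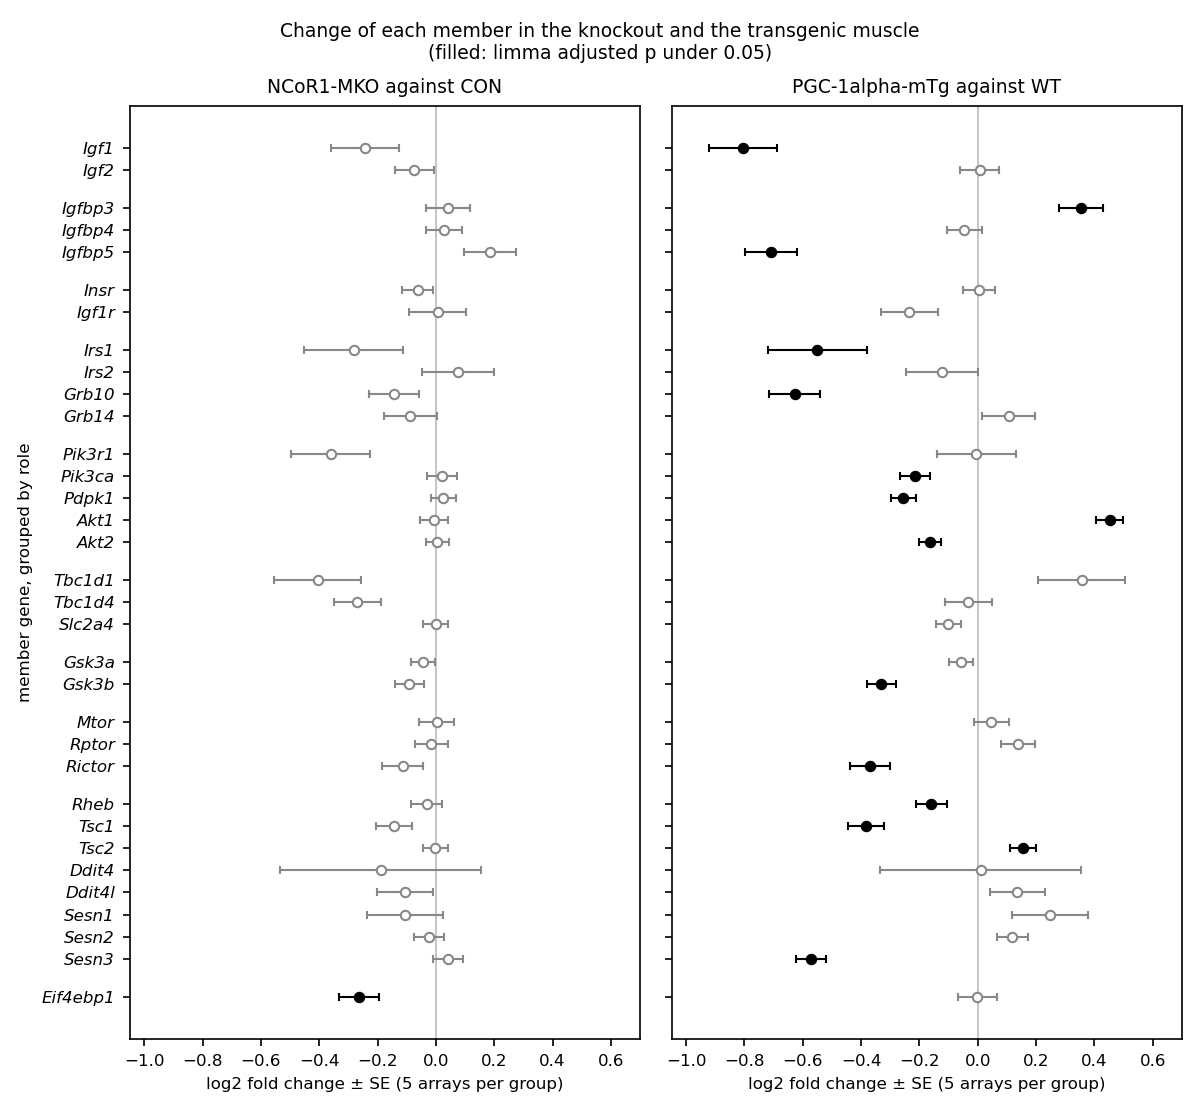
Log2 fold change ± SE (limma, n = 5 arrays per group) of the 33 measured genes in NCoR1-MKO against CON and in PGC-1alpha-mTg against WT, with filled points for adjusted p under 0.05. In the knockout only Eif4ebp1 is filled, and in the transgenic muscle 12 genes are filled on the lower side, down to Igf1 at -0.80, and 3 on the higher side, up to Akt1 at 0.45.

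Among the ligands and IGF binding proteins, transcripts of Igf1 and Igfbp5 were lower and those of Igfbp3 were higher in PGC-1alpha-mTg. Igf1 encodes the growth factor that muscle itself makes and that drives fibre growth. Its WT arrays read 8.87, 8.44, 8.51, 8.62 and 8.34, and its transgenic arrays 7.61, 7.74, 7.87, 7.94 and 7.60. Every transgenic array lay below every WT array, and Igf1 fell by 0.80 ± 0.12 (limma adjusted p = 1.01e-05), with 1.75-fold more signal in the controls. In the knockout cohort Igf1 read 9.38, 8.99, 9.35, 9.49 and 9.72 in CON and 8.99, 8.99, 9.07, 9.44 and 9.23 in NCoR1-MKO, groups that overlapped, with a change of -0.24 ± 0.12 (adjusted p = 0.420). Igf2, the fetal growth factor of the family, changed by -0.07 ± 0.07 in the knockout and 0.01 ± 0.07 in the transgenic muscle, and neither was called. In whole tissue fewer cells of a type and less RNA per cell cannot be told apart, which holds for each value here.

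Igfbp5, an IGF binding protein that muscle expresses strongly, was the member with the next largest fall. WT read 10.75, 10.63, 10.62, 10.65 and 10.34, and PGC-1alpha-mTg 9.88, 9.95, 10.19, 9.66 and 9.77. The groups did not overlap, and Igfbp5 fell by 0.71 ± 0.09 (limma adjusted p = 1.46e-06). Its values in the knockout cohort were 11.75, 11.64, 11.83, 11.78 and 11.65 in CON and 12.05, 11.97, 11.79, 12.05 and 11.72 in NCoR1-MKO, a change of 0.19 ± 0.09 that was not called (adjusted p = 0.413). Igfbp3, the main IGF carrier of the blood, moved the other way in the transgenic muscle. It read 7.97, 8.11, 8.11, 8.01 and 8.05 in WT and 8.42, 8.28, 8.25, 8.34 and 8.72 in PGC-1alpha-mTg, again without overlap, and rose by 0.35 ± 0.08 (adjusted p = 9.16e-04). In the knockout Igfbp3 changed by 0.04 ± 0.08. Igfbp4, which mostly restrains IGF action, changed by 0.03 ± 0.06 and -0.05 ± 0.06 and was not called in either model.

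**Figure D2:**
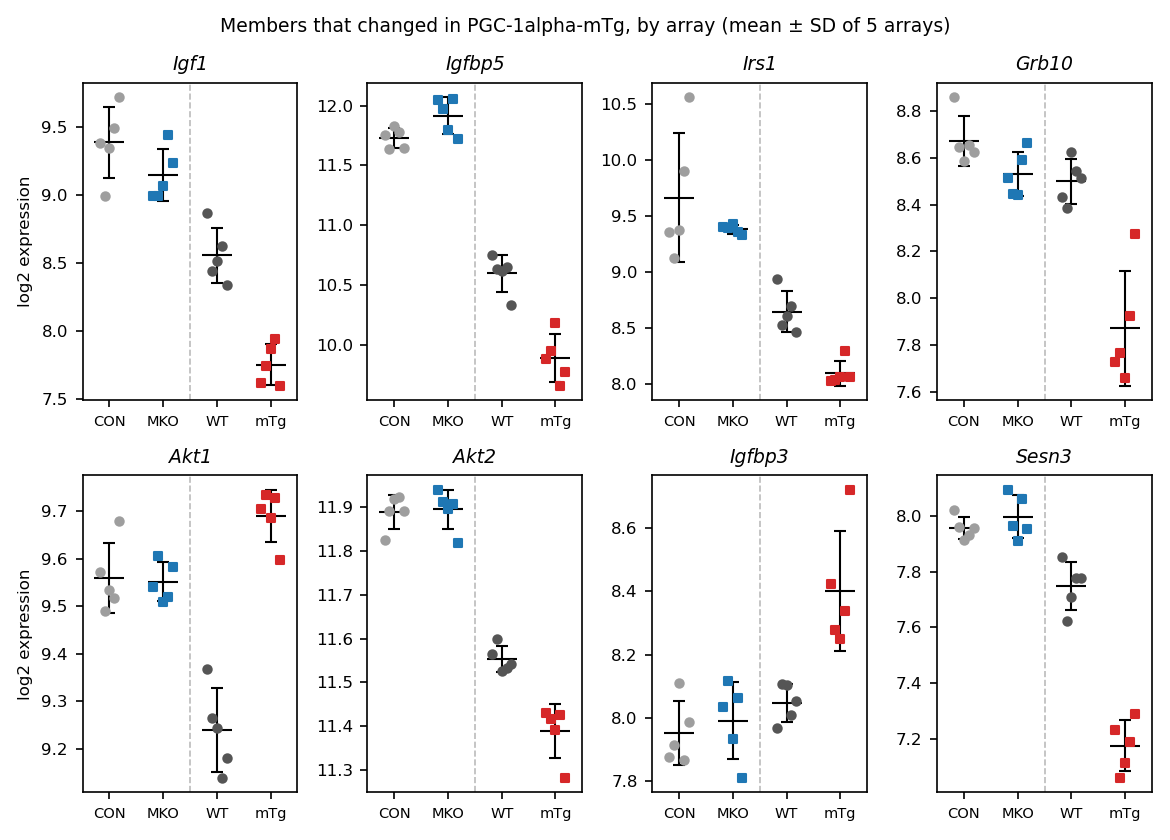
Log2 expression of 8 genes called in PGC-1alpha-mTg against WT (Igf1, Igfbp5, Irs1, Grb10, Akt1, Akt2, Igfbp3 and Sesn3), 1 point per array, with the mean and SD of each group of 5. Transgenic and WT points do not overlap in any of the 8 panels, with Akt1 and Igfbp3 above and the other 6 below WT, and CON and NCoR1-MKO points overlap in all 8.

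Neither receptor passed the test in either model. The insulin receptor gene Insr read 9.46, 9.37, 9.35, 9.48 and 9.41 in WT and 9.41, 9.34, 9.43, 9.48 and 9.42 in PGC-1alpha-mTg, with a change of 0.00 ± 0.05 (limma adjusted p = 0.966). Its values were 9.87, 9.74, 9.75, 9.75 and 9.83 in CON and 9.89, 9.73, 9.81, 9.55 and 9.65 in NCoR1-MKO, with a change of -0.06 ± 0.05. Both pairs of groups overlapped, and the other probe set of Insr was not called in either model. The IGF receptor gene Igf1r read 7.61, 7.71, 7.73, 7.87 and 7.77 in WT and 7.52, 7.31, 7.26, 7.44 and 7.98 in PGC-1alpha-mTg. Of the transgenic arrays 4 lay below all WT arrays and array 5 lay above them. The change was -0.24 ± 0.10 (adjusted p = 0.0793), and without that array it was -0.35 (adjusted p = 4.90e-04). Igf1r was 8.41, 8.35, 8.39, 8.55 and 8.54 in CON and 8.52, 8.54, 8.44, 8.54 and 8.22 in NCoR1-MKO, a change of 0.01 ± 0.10.

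Of the 4 adaptors, Grb10 and Irs1 fell in the transgenic muscle, and Irs2 and Grb14 were not called. Grb10 encodes an adaptor that binds the insulin and IGF receptors and inhibits their signal. It read 8.43, 8.38, 8.62, 8.54 and 8.51 in WT and 7.73, 7.77, 7.66, 7.93 and 8.27 in PGC-1alpha-mTg. No transgenic array reached a WT array, and Grb10 fell by 0.63 ± 0.09 (limma adjusted p = 5.68e-06). CON read 8.86, 8.65, 8.58, 8.66 and 8.62 and NCoR1-MKO 8.51, 8.44, 8.44, 8.59 and 8.66, which overlapped, with a change of -0.14 ± 0.09 (adjusted p = 0.601).

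Irs1, the main insulin receptor substrate of muscle, read 8.94, 8.53, 8.61, 8.69 and 8.47 in WT and 8.03, 8.04, 8.06, 8.29 and 8.06 in PGC-1alpha-mTg. The groups did not overlap, and Irs1 fell by 0.55 ± 0.17 (limma adjusted p = 0.0174). Without WT array 1, its highest control, the adjusted p was 0.0556. This was the highest of the fits that left out 1 array, and the lowest was 3.16e-04. In the knockout cohort the 2 groups differed in their spread. CON read 9.36, 9.12, 9.37, 9.90 and 10.56, with an SD of 0.58, and NCoR1-MKO 9.40, 9.39, 9.43, 9.36 and 9.33, with an SD of 0.039, and the equality of these spreads was not tested. The change was -0.28 ± 0.17 (adjusted p = 0.600), and it was -0.06 without CON array 5. Because the fit uses 1 spread per gene for all groups, the wide CON group also enters the SE of the transgenic comparison. The other probe set of Irs1 was dim, with a WT mean of 4.44 ± 0.07 (SD, n = 5) and a transgenic mean of 4.30 ± 0.16, and was not called. Irs2 changed by 0.07 ± 0.12 and -0.12 ± 0.12, and Grb14, an inhibitory adaptor like Grb10, by -0.09 ± 0.09 and 0.11 ± 0.09, in the knockout and the transgenic muscle.

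In PGC-1alpha-mTg Akt1 rose, and Akt2 fell by 1 of its 2 probe sets. Akt1, the isoform linked mainly to growth, read 9.37, 9.26, 9.24, 9.14 and 9.18 in WT and 9.71, 9.73, 9.69, 9.73 and 9.60 in the transgenic arrays. All transgenic arrays lay above all WT arrays, and Akt1 rose by 0.45 ± 0.05 (limma adjusted p = 9.58e-08), or 1.37-fold. Akt2, the isoform linked mainly to glucose uptake, read 11.57, 11.60, 11.53, 11.53 and 11.54 in WT and 11.43, 11.41, 11.39, 11.42 and 11.28 in PGC-1alpha-mTg. It fell by 0.16 ± 0.04 (adjusted p = 0.00228), without overlap. The other probe set of Akt2 gave -0.08 ± 0.04 (adjusted p = 0.104 among all probe sets with 1 symbol), so the fall of Akt2 rests on 1 of 2 probe sets. In the knockout Akt1 read 9.57, 9.49, 9.53, 9.52 and 9.68 in CON and 9.54, 9.61, 9.51, 9.52 and 9.58 in NCoR1-MKO, and Akt2 read 11.83, 11.89, 11.92, 11.92 and 11.89 in CON and 11.94, 11.91, 11.90, 11.91 and 11.82 in NCoR1-MKO. Both overlapped, with changes of -0.01 ± 0.05 and 0.01 ± 0.04.

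Pdpk1 and Pik3ca, which act upstream of Akt, also fell. Pdpk1, which encodes PDK1, read 9.58, 9.55, 9.56, 9.62 and 9.67 in WT and 9.27, 9.29, 9.33, 9.46 and 9.36 in the transgenic arrays, and fell by 0.26 ± 0.04 (limma adjusted p = 6.73e-05). Pik3ca, a catalytic subunit of PI3K, read 9.63, 9.48, 9.45, 9.47 and 9.40 in WT and 9.29, 9.17, 9.24, 9.29 and 9.36 in the transgenic arrays, and fell by 0.22 ± 0.05 (adjusted p = 0.00231). For both genes the groups did not overlap. In the knockout both stayed within 0.03 of CON, at 0.03 ± 0.04 for Pdpk1 and 0.02 ± 0.05 for Pik3ca, and were not called. Pik3r1, the regulatory subunit of PI3K, changed by -0.36 ± 0.14 in the knockout (adjusted p = 0.215) and -0.01 ± 0.14 in the transgenic muscle.

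Of the 3 glucose uptake genes none was called in either model. Slc2a4, which encodes GLUT4, read 11.49, 11.57, 11.49, 11.51 and 11.55 in WT and 11.32, 11.42, 11.43, 11.49 and 11.44 in PGC-1alpha-mTg. Its groups just failed to overlap, and the change was -0.10 ± 0.04 (limma adjusted p = 0.0835). That change was called after quantile normalization across all arrays and with eBayes trend and robust (adjusted p down to 0.0291). CON read 12.01, 12.01, 12.09, 11.96 and 11.97 and NCoR1-MKO 12.06, 11.98, 12.01, 12.07 and 11.90, a change of -0.00 ± 0.04. Tbc1d4, the Akt substrate that holds GLUT4 inside the cell, read 9.29, 9.06, 9.18, 9.20 and 8.99 in CON and 8.95, 8.88, 8.97, 8.78 and 8.78 in NCoR1-MKO. Every knockout array lay below every CON array, yet the change of -0.27 ± 0.08 missed the threshold (adjusted p = 0.0830). It was called without PGC-1alpha-mTg array 5 (adjusted p = 0.0458), which alters only the shared spread. With only the 10 arrays of the knockout cohort it was called as well (adjusted p = 0.0451). In the transgenic muscle Tbc1d4 changed by -0.03 ± 0.08.

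Tbc1d1, the relative of Tbc1d4 that is abundant in fast fibres, was lower than CON in the knockout and higher than WT in the transgenic muscle, and neither change was called on its own. CON read 9.27, 9.45, 9.40, 8.67 and 9.13 and NCoR1-MKO 8.68, 8.41, 8.78, 8.93 and 9.10, a change of -0.40 ± 0.15 (limma adjusted p = 0.201). WT read 8.45, 8.68, 8.56, 8.46 and 9.20 and PGC-1alpha-mTg 8.98, 8.83, 9.01, 9.04 and 9.28, a change of 0.36 ± 0.15 (adjusted p = 0.0822). CON array 4 lay at the level of the knockout arrays and WT array 5 at that of the transgenic arrays. Without CON array 4 the adjusted p was 0.0447 in the knockout and 0.0465 in the transgenic muscle, and without WT array 5 the transgenic change was 0.49 (adjusted p = 0.00996).

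Gsk3b, a GSK3 isoform, a kinase that inhibits glycogen synthase, fell in the transgenic muscle. WT read 9.83, 9.84, 9.92, 9.88 and 9.92 and PGC-1alpha-mTg 9.61, 9.43, 9.40, 9.61 and 9.68, without overlap, a fall by 0.33 ± 0.05 (limma adjusted p = 1.46e-05). In the knockout Gsk3b read 10.28, 10.29, 10.32, 10.36 and 10.27 in CON and 10.27, 10.23, 10.24, 10.19 and 10.14 in NCoR1-MKO. These groups also did not overlap, by less than 0.01, and the change of -0.09 ± 0.05 was not called (adjusted p = 0.517). Gsk3a, the other isoform, changed by -0.04 ± 0.04 in the knockout and -0.06 ± 0.04 in the transgenic muscle.

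Of the 3 mTOR complex genes, Rictor fell in PGC-1alpha-mTg and Mtor and Rptor were not called. Mtor encodes the kinase of both complexes. It read 8.22, 8.28, 8.22, 8.07 and 8.21 in WT and 8.36, 8.07, 8.08, 8.29 and 8.43 in PGC-1alpha-mTg, a change of 0.05 ± 0.06 (limma adjusted p = 0.635), and 8.92, 8.88, 8.88, 8.84 and 9.01 in CON and 8.94, 8.91, 8.91, 8.93 and 8.86 in NCoR1-MKO, a change of 0.00 ± 0.06. Rictor, the subunit that defines mTORC2, read 8.19, 8.22, 8.18, 8.02 and 8.13 in WT and 7.86, 7.70, 7.56, 7.83 and 7.93 in PGC-1alpha-mTg. It fell by 0.37 ± 0.07 (adjusted p = 2.53e-04) without overlap, and changed by -0.11 ± 0.07 in the knockout. Rptor, the subunit that defines mTORC1, changed by 0.14 ± 0.06 in the transgenic muscle (adjusted p = 0.0811) and -0.02 ± 0.06 in the knockout, and the former was called without PGC-1alpha-mTg array 3 (adjusted p = 0.0327). It was also called after quantile normalization across all arrays, with weights per array and without PGC-1alpha-mTg arrays 2 and 3 (adjusted p down to 0.00528). In that last setting, chosen after seeing the data, Mtor was called higher as well (adjusted p = 0.0323).

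Of the 8 regulators of mTORC1, Sesn3, Tsc1 and Rheb fell and Tsc2 rose in PGC-1alpha-mTg, and 0 were called in the knockout. Sesn3 encodes a sestrin, a stress-induced inhibitor of mTORC1. WT read 7.85, 7.62, 7.71, 7.78 and 7.78 and PGC-1alpha-mTg 7.23, 7.06, 7.11, 7.19 and 7.29. The groups lay well apart, and Sesn3 fell by 0.57 ± 0.05 (limma adjusted p = 9.44e-09), the smallest adjusted p among the members in this comparison. CON read 8.02, 7.96, 7.91, 7.93 and 7.96 and NCoR1-MKO 8.10, 7.96, 7.91, 8.06 and 7.95, with a change of 0.04 ± 0.05. The other sestrins were not called in either model, with transgenic changes of 0.25 ± 0.13 for Sesn1 and 0.12 ± 0.05 for Sesn2, whose transgenic arrays all lay above WT.

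The partners of the TSC complex moved in opposite directions. Tsc1 read 8.84, 8.88, 8.87, 8.77 and 8.89 in WT and 8.59, 8.37, 8.35, 8.40 and 8.63 in the transgenic arrays, and fell by 0.38 ± 0.06 (limma adjusted p = 3.87e-05) without overlap. Tsc2 read 9.69, 9.72, 9.61, 9.63 and 9.60 in WT and 9.85, 9.73, 9.70, 9.82 and 9.91 in PGC-1alpha-mTg, and rose by 0.16 ± 0.04 (adjusted p = 0.00936), with transgenic array 3 inside the WT range. Rheb, the small GTPase that the TSC complex switches off, read 10.02, 9.94, 9.95, 10.14 and 9.98 in WT and 9.73, 9.99, 9.83, 9.86 and 9.83 in PGC-1alpha-mTg. Array 2 lay inside the WT range, and Rheb fell by 0.16 ± 0.05 (adjusted p = 0.0270), a call that was lost without WT array 1 or 4 or without PGC-1alpha-mTg array 1 or 3 (adjusted p up to 0.0892). In the knockout the changes were -0.14 ± 0.06 for Tsc1, -0.00 ± 0.04 for Tsc2 and -0.03 ± 0.05 for Rheb. Ddit4 (REDD1), a stress-induced inhibitor of mTORC1, ranged from 6.95 to 8.88 over the 20 arrays and changed by -0.19 ± 0.35 and 0.01 ± 0.35. Its relative Ddit4l changed by -0.11 ± 0.10 and 0.13 ± 0.10.

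Eif4ebp1, the gene of 4E-BP1, was the member called in the knockout. CON read 9.65, 9.56, 9.72, 9.76 and 9.70 and NCoR1-MKO 9.23, 9.35, 9.52, 9.47 and 9.50. Every knockout array lay below every CON array, and Eif4ebp1 fell by 0.26 ± 0.07 (limma adjusted p = 0.0356), with 1.20-fold more signal in CON. The call was lost when CON array 1, 3, 4 or 5 or NCoR1-MKO array 1 or 2 was left out, with an adjusted p of up to 0.117. In the transgenic cohort WT read 9.08, 9.35, 9.44, 9.28 and 9.34 and PGC-1alpha-mTg 9.42, 9.19, 9.18, 9.34 and 9.34, a change of -0.00 ± 0.07. The difference between the effects was -0.26 ± 0.10 and was not called (adjusted p = 0.0704). It was called without CON array 2 or WT array 3 (adjusted p down to 0.0444). In 4 of 8 settings other than leaving out 1 array it was called as well (adjusted p down to 0.0284).

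**Figure D3:**
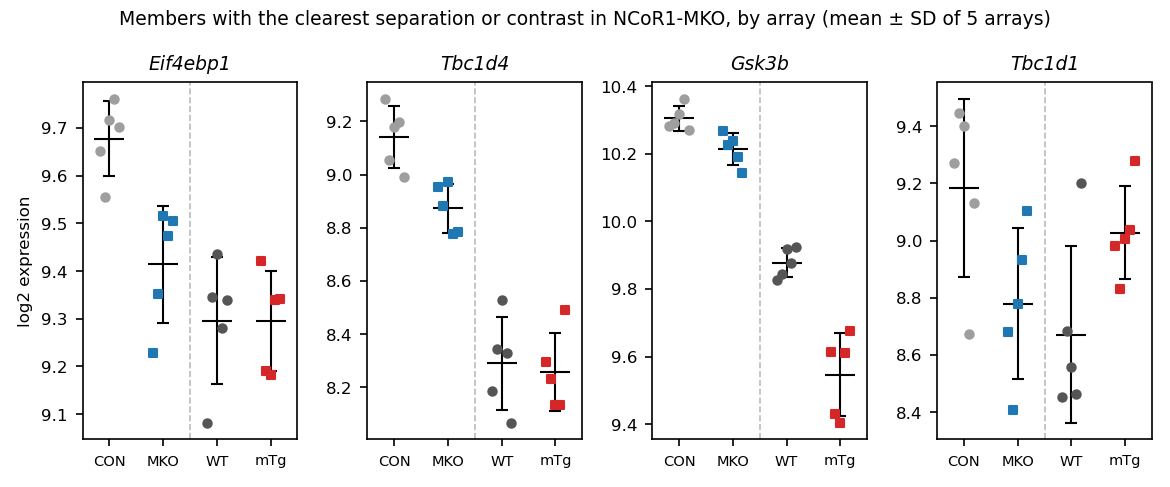
Log2 expression of Eif4ebp1, Tbc1d4, Gsk3b and Tbc1d1, 1 point per array, with the mean and SD of each group of 5. In the knockout cohort the NCoR1-MKO points of Eif4ebp1, Tbc1d4 and Gsk3b lie below all CON points, while those of Tbc1d1 overlap with CON, and of these 4 genes only Eif4ebp1 was called in that cohort.

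Counted over the members, the groups did not overlap for 3 genes in the knockout, all lower (Eif4ebp1, Tbc1d4 and Gsk3b), where 4.17% of all genes had groups that did not overlap. In the transgenic comparison they did not overlap for 15 members, 3 higher and 12 lower, against 19.9% of all genes. All 33 members lie above the dimmest 40 percent of genes, and the share without overlap in that range was not computed. The shares over all genes are therefore not a like background, and an excess among the members is not shown. The 3 were Akt1, Igfbp3 and Sesn2, and the 12 were the genes that fell, without Rheb and with Slc2a4.

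The effects of the models were compared directly, as the change in NCoR1-MKO minus the change in PGC-1alpha-mTg. The models share no control array. Of the 33 members, 10 differed, 8 with a higher and 2 with a lower value in the knockout, where 15.2% of all genes differed, 8.50% higher and 6.66% lower. Among the genes above the dimmest 40 percent, where all members lie, 23.5% differed, against 30.3% of the members. Igfbp5 had the largest difference, 0.89 ± 0.13 (limma adjusted p = 1.98e-05). Sesn3 followed with 0.61 ± 0.07 (adjusted p = 2.22e-06), Igf1 with 0.56 ± 0.16 (adjusted p = 0.0211) and Grb10 with 0.49 ± 0.12 (adjusted p = 0.00794). All 4 fell in the transgenic muscle and were not called in the knockout. On the lower side were Tbc1d1 with -0.76 ± 0.21 (adjusted p = 0.0154), whose changes had opposite signs in the models, and Akt1 with -0.46 ± 0.07 (adjusted p = 3.13e-05).

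The remaining differences were smaller. Pdpk1 differed by 0.28 ± 0.06 (limma adjusted p = 0.00216), Gsk3b by 0.24 ± 0.07 (adjusted p = 0.0203), Pik3ca by 0.24 ± 0.07 (adjusted p = 0.0274) and Akt2 by 0.17 ± 0.05 (adjusted p = 0.0391). The call of Pik3ca was lost without CON array 3, NCoR1-MKO array 1, WT array 1 or PGC-1alpha-mTg array 2 (adjusted p up to 0.0594). That of Akt2 was lost without CON array 1, 2 or 5, NCoR1-MKO array 1, 2, 3 or 4, WT array 1, 2 or 5 or PGC-1alpha-mTg array 3 or 5 (adjusted p up to 0.0789). By the other probe set of Akt2 the difference was 0.11 ± 0.05 and was not called (limma adjusted p = 0.186 among all probe sets with 1 symbol). For 5 genes called in the transgenic muscle the difference was not called: Irs1 (0.27 ± 0.24), Rictor (0.26 ± 0.10), Tsc1 (0.24 ± 0.09), Tsc2 (-0.16 ± 0.06) and Rheb (0.13 ± 0.08), so a differing response of these is not shown. Igfbp3, at -0.31 ± 0.11, lay just past the threshold (adjusted p = 0.0513). Single arrays decided some of these: the difference was called for Irs1 without CON array 5 (0.49, adjusted p = 0.0322), for Igf1r and Rictor without PGC-1alpha-mTg array 5 (adjusted p = 0.0120 and 0.0375), for Igfbp3 without NCoR1-MKO array 2 or PGC-1alpha-mTg array 2 or 3 (adjusted p down to 0.0315), and for Tsc1 without NCoR1-MKO array 3 or 5 or PGC-1alpha-mTg array 1 or 5 (adjusted p down to 0.0224). Processing mattered too. Of 8 settings other than leaving out 1 array, the difference of Igfbp3 was called in 5 (adjusted p down to 0.00641). That of Tsc1 was called in 2 (adjusted p down to 0.0205) and that of Igf1r in 1 (adjusted p = 0.0379).

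**Figure D4:**
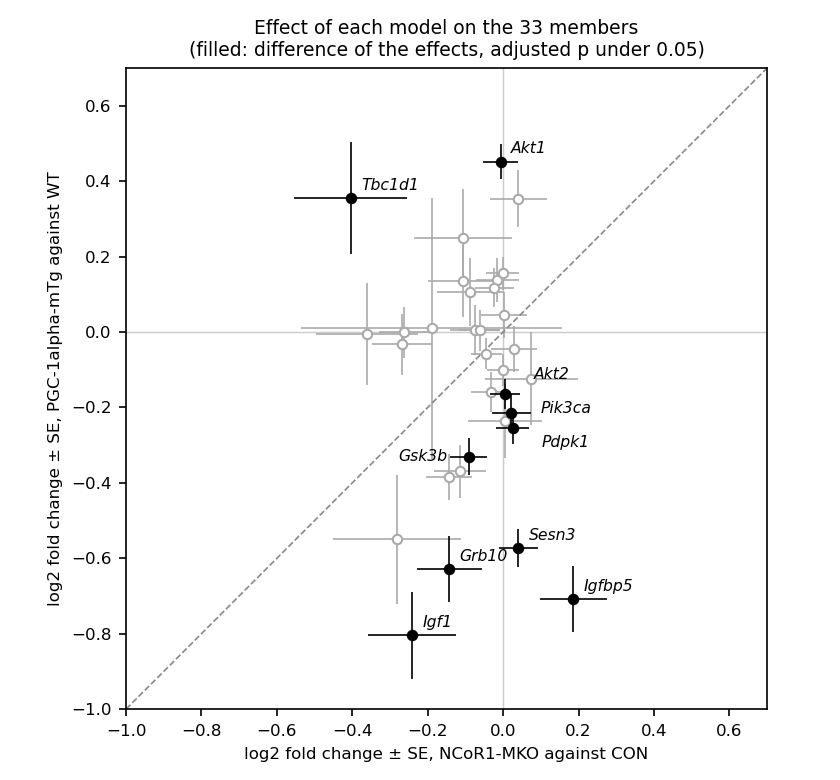
Log2 fold change ± SE of the 33 genes in NCoR1-MKO against CON (horizontal axis) and in PGC-1alpha-mTg against WT (vertical axis), where the dashed line marks equal effects and filled points the 10 genes whose effects differed at an adjusted p under 0.05 in limma. Igfbp5, Sesn3, Igf1 and Grb10 lie far below the line, and Akt1 and Tbc1d1 far above it.

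The members also differed in how much they varied among arrays of 1 group, and 7 of them had a pooled SD within groups among the 2.5 percent largest of all genes. Ddit4 varied most, with an SD of 0.63, ahead of Irs1 (0.31), Tbc1d1 (0.27), Pik3r1 (0.24), Sesn1 (0.23), Irs2 (0.22) and Igf1 (0.21). Deviations of these 7 from their group means were correlated over the 20 arrays in all 21 pairs, with p-values from permutation within groups and adjusted over the pairs. The genes were picked by their spread after the data were seen. Of the pairs, 12 had an adjusted p under 0.05 by Pearson's r, 7 of them positive, and 13 by Spearman's rho. No such count was made for other genes of similar spread, so these numbers are not shown to be particular to the members.

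Tbc1d1 and Pik3r1 deviated together most closely, with r = 0.811 (permutation p = 2.70e-04, adjusted p = 0.00567) and rho = 0.765 (permutation p = 4.50e-04, adjusted p = 0.00371). The r was 0.949 in the knockout cohort and 0.696 in the transgenic cohort, and 0.763 without the 2 arrays farthest from the median, WT 5 and PGC-1alpha-mTg 5. Pik3r1 also went with Sesn1 (r = 0.741, permutation p = 0.00113, adjusted p = 0.00748, and rho = 0.713, permutation p = 0.00157, adjusted p = 0.00824), with 0.542 and 0.856 in the cohorts and 0.540 without the same 2 arrays. Ddit4 went with Pik3r1 (r = 0.683, permutation adjusted p = 0.00748) and Tbc1d1 (r = 0.639, adjusted p = 0.013). It went against Irs2 (r = -0.663, adjusted p = 0.00969) and Irs1 (r = -0.522, adjusted p = 0.0222). Its pairs with Sesn1 and Igf1 did not pass (r = 0.372 and -0.188, adjusted p = 0.16 and 0.501). Irs2 went against Pik3r1, with r = -0.628 (permutation p = 0.00369, adjusted p = 0.00969) and rho = -0.800 (permutation p = 7.00e-05, adjusted p = 0.00147), -0.661 and -0.926 in the cohorts, and -0.825 without CON 1 and CON 5. Irs2 also went against Tbc1d1 (r = -0.581, permutation p = 0.0185, adjusted p = 0.0324, and rho = -0.735, permutation p = 5.30e-04, adjusted p = 0.00371). With Sesn1 both coefficients of Irs2 over the 20 arrays were smaller in size (r = -0.458, permutation p = 0.00278, adjusted p = 0.00969, and rho = -0.568, permutation p = 0.0039, adjusted p = 0.0154). The r of this pair was -0.470 in the knockout cohort and -0.933 in the transgenic cohort.

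Igf1 and Irs1 deviated together as well, with r = 0.711 (permutation p = 5.80e-04, adjusted p = 0.00609) and rho = 0.555 (permutation p = 0.0191, adjusted p = 0.0308). Their r was 0.701 in the knockout cohort and 0.904 in the transgenic cohort, and 0.517 without CON 2 and CON 5. Irs1 and Irs2 had r = 0.762 (permutation p = 0.0116, adjusted p = 0.0222) and rho = 0.650 (permutation p = 0.0120, adjusted p = 0.0253), but r was 0.823 in the knockout cohort and 0.273 in the transgenic cohort. It was 0.588 without CON 2 and CON 5. CON array 5 had the highest values of both Irs1, at 10.56, and Irs2, at 8.72, in its group.

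**Figure D5:**
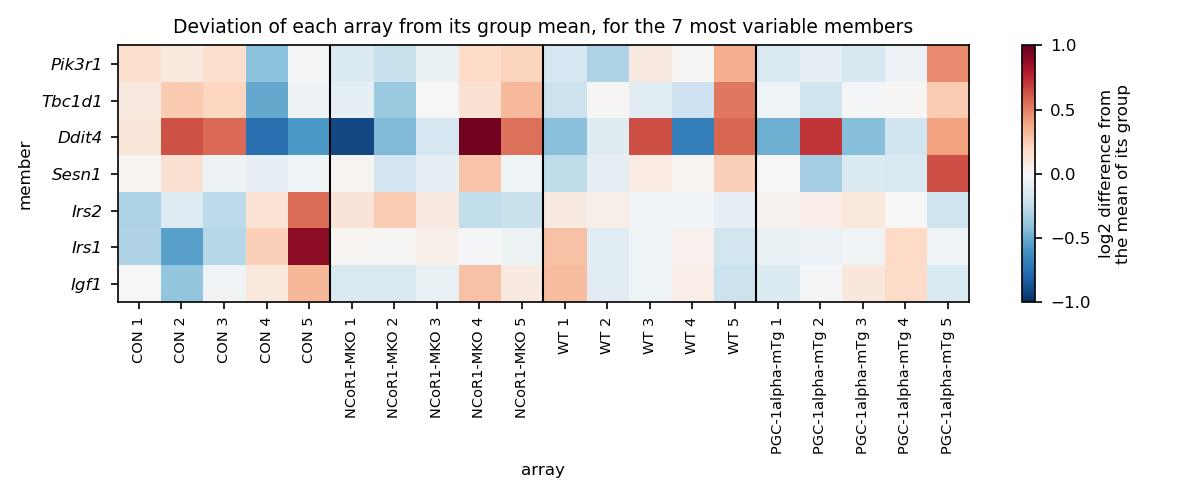
Deviation of log2 expression from the group mean for the 7 most variable genes (rows) on the 20 arrays (columns, by group). Irs1 and Irs2 are highest on CON array 5, and arrays with high Pik3r1 and Tbc1d1, such as WT array 5 and PGC-1alpha-mTg array 5, have low Irs2.

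Of 115 other genes of the pathway, 104 were measured, 95 of them above the dimmest 40 percent of genes. In the knockout 2 rose and 2 fell, 3.85% of the list against 2.63% of all genes. Of the 95 brighter genes 4.21% were called, against 4.20% of all genes in that range, so this share lay near its background. Pik3cd, a PI3K catalytic subunit found mainly in white blood cells, rose by 0.32 ± 0.08 (limma adjusted p = 0.0283), and Inppl1, the lipid phosphatase SHIP2, by 0.21 ± 0.04 (adjusted p = 0.00877). Eif4e, the cap-binding protein that 4E-BP1 inhibits, fell by 0.26 ± 0.06 (adjusted p = 0.0101), and Igf2r, the receptor that clears IGF2, by 0.22 ± 0.05 (adjusted p = 0.0149). The mean of the probe sets of Eif4e gave -0.14 (adjusted p = 0.114). The call of Igf2r was lost without CON array 5 (adjusted p = 0.0533), and that of Pik3cd without CON array 1, 2 or 4 or NCoR1-MKO array 1, 2, 3 or 4 (adjusted p up to 0.0862).

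In PGC-1alpha-mTg 9 of the 104 rose and 31 fell, with a median of -0.07. These were 38.5% of the list, against 28.0% of all genes. Of the 95 brighter genes 41.1% were called, against 42.2% of all genes in that range, so the share lay near its background. Genes of GLUT4 traffic fell in 7 of 14 cases and rose in 0, and genes of the S6 kinase and 4E-BP branch fell in 6 of 11 and rose in 0. Of 34 parts and upstream regulators of the mTOR complexes 4 rose and 8 fell, of 19 adaptors and their brakes 2 rose and 4 fell, of 19 PI3K, phosphatase, Akt and FoxO genes 2 rose and 4 fell, and of 7 IGF binding and receptor genes 1 rose and 2 fell. Sort1, the sortilin of GLUT4 storage vesicles, fell by 1.07 ± 0.06 (limma adjusted p = 2.01e-11). Rragd, a Rag GTPase that brings mTORC1 to the lysosome, fell by 0.68 ± 0.04 (adjusted p = 2.68e-11), Eef2k, the kinase that slows elongation, by 0.55 ± 0.07 (adjusted p = 4.86e-06) and the adaptor Dok5 by 0.53 ± 0.08 (adjusted p = 2.28e-05). The largest rise was that of Inppl1, 0.67 ± 0.04 (adjusted p = 5.07e-11), which was also called in the knockout. Of the other genes called in the knockout, Igf2r fell here as well, by 0.32 ± 0.05 (adjusted p = 2.52e-05), while Pik3cd fell by 0.39 ± 0.08 (adjusted p = 5.76e-04), against its rise in the knockout, and Eif4e was not called (-0.08 ± 0.06, adjusted p = 0.346).

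Castor1, an arginine sensor of mTORC1, rose by 0.37 ± 0.12 (limma adjusted p = 0.0300), Lamtor3, a subunit of the lysosomal Ragulator, by 0.32 ± 0.04 (adjusted p = 5.46e-07) and the adaptor Gab2 by 0.30 ± 0.05 (adjusted p = 2.87e-05). The call of Castor1 was lost without WT array 1 or 2 or PGC-1alpha-mTg array 4 or 5 (adjusted p up to 0.102). The effects of the models differed for 26.0% of the 104, 19 higher and 8 lower in the knockout, against 15.2% of all genes. In the brighter range the shares were 26.3% of 95 and 23.5% of all genes. The largest were those of Sort1 (1.06 ± 0.09), Pik3cd (0.72 ± 0.11), Rragd (0.65 ± 0.06) and Eef2k (0.53 ± 0.11) on the higher side, and Inppl1 (-0.47 ± 0.06), Lamtor3 (-0.35 ± 0.05), Irs4 (-0.34 ± 0.11) and Deptor (-0.30 ± 0.09) on the lower side. Those of Irs4 and Deptor were lost in 14 and 9 of the 20 fits that left out 1 array. Irs4 was dim, with group means of 5.06 to 5.37, below the median of every array.

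Some markers of other cell types and of muscle fibres were called in the transgenic comparison. There 28.0% of all genes were called, and 42.2% of the genes above the dimmest 40 percent. The called share was 70.0% for endothelial, 75.0% for satellite cell, 62.5% for slow fibre and 60.0% for general muscle fibre markers. It was 42.9% for fibroblast and 16.7% for adipocyte markers, near or below the share of the brighter genes. Of 10 endothelial markers 7 rose, and their mean level was 8.37 to 8.58 on WT arrays and 8.72 to 8.90 on transgenic arrays. Of 7 fibroblast markers 3 fell, with mean levels of 9.29 to 9.57 in WT and 9.11 to 9.32 in PGC-1alpha-mTg and a median change of -0.24. Satellite cell markers fell in 3 of 4 cases (6.35 to 6.50 against 6.08 to 6.27), slow fibre markers in 5 of 8 (9.30 to 9.81 against 8.35 to 9.14) and general muscle fibre markers in 6 of 10 (12.95 to 12.98 against 12.82 to 12.85), and 1 of 6 adipocyte markers rose (7.13 to 7.73 against 7.41 to 7.91). In the knockout 2 of 8 slow fibre markers fell (8.94 to 9.92 in CON against 8.08 to 9.27), and 1 of 10 endothelial markers (8.65 to 8.86 against 8.84 to 9.15) and 1 of 10 muscle fibre markers (13.46 to 13.49 against 13.48 to 13.51) rose. Over all genes 2.63% were called in the knockout, and 4.20% of those above the dimmest 40 percent. None of the smooth muscle, macrophage, nerve or blood markers was called in either comparison. The part of these cell types in the members' changes was not tested.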

How the data were processed

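Expression was measured in 20 gastrocnemius samples on Affymetrix arrays. The deposited values are log2 expression values that the authors made by RMA, with Partek also named, per the submitters' processing notes. Tool versions and a genome build are not given in the sources used here. RMA brings arrays to common quantiles, apparently in each cohort separately. Symbols came from the platform's annotation. Of 35556 probe sets, 21789 had 1 symbol, 1621 several and 12146 none, and 21698 matched RefSeq (GRCm38.p6). The brightest of a gene's probe sets was used (999 genes had more than 1), and no dim gene was removed. With limma 3.58.1 (R 4.3.3), 4 group means were fitted over the 20 arrays and contrasted by eBayes, two-sided, with Benjamini-Hochberg adjustment over 19938 genes. The fit was tested on simulated data. No 2 arrays were identical (0 pairs), and arrays have no sequencing depth, so their number limits the precision. Alternatives were other normalization, filters, probe set summaries, variance models, a replicate block and leaving out arrays. The members and gene lists were chosen with earlier results of these data known. Array values are given for called members and for Insr, Igf1r, Irs1, Akt2, Slc2a4 and Mtor, and up to 4 other pathway genes with the largest called changes are named per direction. Tbc1d4, Sesn2 and Gsk3b were singled out in the counts of groups without overlap, and Tbc1d4 array values were added, after their values were seen.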

Additional observations from a re-analysis of the deposited data

Results flagged for a closer look

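Of 132 sets of 5 arrays (33 genes in 4 groups), 5 held an array that stood apart from the other 4 by Dixon's criterion (gap over range above 0.71). Chance gives about 1 in 20 such sets. Irs1 read 8.29 on PGC-1alpha-mTg array 4 and 8.03 to 8.06 on the others of that group. Pik3r1 read 9.68 on PGC-1alpha-mTg array 5 against 9.05 to 9.14. Akt2 read 11.28 on the same array against 11.39 to 11.43. Grb10 read 8.86 on CON array 1 against 8.58 to 8.66, and Tsc2 read 10.31 on CON array 4 against 10.21 to 10.23.

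For 10 genes the effect in NCoR1-MKO differed from that in PGC-1alpha-mTg by the test of the difference in limma (knockout minus transgenic, log2 scale). The differences were 0.89 for Igfbp5, 0.61 for Sesn3, 0.56 for Igf1, 0.49 for Grb10, 0.28 for Pdpk1, 0.24 for Gsk3b, 0.24 for Pik3ca, 0.17 for Akt2, -0.46 for Akt1 and -0.76 for Tbc1d1.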

How the results depend on the processing

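Of 26 called changes or differences of the members, 20 were called in the same direction in all of 29 alternatives that could be fitted, 13 of 15 in PGC-1alpha-mTg (not Irs1 and Rheb), 7 of 10 differences (not Pik3ca, Akt2 and Gsk3b) and 0 of 1 in the knockout (Eif4ebp1). No called value changed sign (0 reversed), and 79 values changed sign where neither was called. The difference could not be fitted with only the 10 arrays of a comparison. In the knockout 2 members were called, both lower, with only the 10 arrays of the comparison, and 0 with the replicate number as a block. Leaving out 1 array gave 0 to 2. In PGC-1alpha-mTg 5 members rose after quantile normalization across all arrays, and 6, with Mtor, Rptor and Sesn1 among them, without arrays 2 and 3. That last setting, like the fit of each probe set alone, was chosen after seeing the data. Leaving out both arrays gave 5 higher and 5 lower differences. Lower differences numbered 4 after quantile normalization, without the dimmest 40 percent of genes and with eBayes trend and robust. Without arrays 2 and 3 the calls of Irs1 (adjusted p = 0.0823) and of the differences of Gsk3b (adjusted p = 0.0969), Pik3ca (adjusted p = 0.112) and Akt2 (adjusted p = 0.0584) were lost. Irs1 was -0.52 there. Replicate numbers were shared by the groups, but same-numbered arrays did not deviate together (r from -0.132 to 0.0400 in the knockout cohort and from -0.232 to 0.196 in the transgenic cohort). With the replicate block 14 transgenic changes and 8 differences were called. Of 20 results named for other pathway genes, 13 were called in every alternative. The knockout call of Inppl1 was lost with the replicate block (adjusted p = 0.0504), and those of Pik3cd, Eif4e and, in the transgenic muscle, Castor1 with only the 10 arrays (adjusted p = 0.0549, 0.0683 and 0.0680). The differences of Irs4 and Deptor were lost with the block and without arrays 2 and 3.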
